A study of Mus musculus with 127 samples.

Results

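The 8 genes described here encode transcription factors of the myeloid blood lineages. They were chosen by name (Spi1, Irf8, Klf4, Cebpa, Cebpb, Cebpd, Cebpe and Gfi1) out of the 23366 gene symbols measured, and all 8 were found, Spi1 under its older symbol Sfpi1. Bulk RNA-seq by SMART-seq2, which copies whole transcripts from few cells, was made of 3 populations sorted from mouse bone marrow. They are LT (long-term stem cells), ST (short-term stem cells) and MPP (multipotent progenitors of blood). Cells of old mouse 2 and of young mice 1, 2 and 3 were cultured with LPS at 100 ng/ml (bacterial lipopolysaccharide, sensed by TLR4) plus Pam3csk4 at 1 ug/ml (a synthetic lipopeptide sensed by TLR2), and were collected at 0, 0.5, 1, 2, 4, 8 and 12 h. Cells of old mouse 4 and of young mouse 4 were kept in the same medium without ligand and were collected at 0, 2, 4 and 8 h. The strain, the ages behind the words old and young, and the sorting markers are not given in the sources used here. The 0 h libraries of old mouse 2 and of young mice 1 and 2 carry the ligand treatment in their labels, except 2 LT repeats of old mouse 2. All 0 h libraries were read as a baseline of no exposure. Each value below is the sum of the technical repeats of 1 mouse, population and time, given as CPM (read counts scaled to an equal library total).

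Myeloid identity is set by a small circuit of DNA-binding proteins. PU.1, the product of Spi1, and the C/EBP proteins sit together on enhancers of genes for colony-stimulating factor receptors, granule enzymes and antimicrobial proteins. C/EBP-alpha (Cebpa) takes progenitors into the granulocyte and monocyte branch, and C/EBP-epsilon (Cebpe) acts late, when neutrophils fill their granules. C/EBP-beta (Cebpb) is known for granulocyte production during infection, and C/EBP-delta (Cebpd) for the acute-phase response. Irf8 directs cells towards monocytes and dendritic cells, Gfi1 is a repressor that favours neutrophils, and Klf4 promotes monocyte differentiation. Stem and progenitor cells carry Toll-like receptors and can sense bacterial products themselves.

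Promoter sequences from RefSeq (build GRCm38.p6), the 250 bases before a transcription start, were at hand for Cebpa, Cebpb, Gfi1, Irf8 and Klf4, which is 5 of the 8 members, and not for Spi1, Cebpd or Cebpe. Those of Klf4, Cebpb and Irf8 are shown, written 5′ to 3′, because the time courses of these genes are described in detail below. Capitals mark the matches to the motifs searched on both strands. Klf4 lies on the minus strand at chr4:55532476-55532725, Cebpb on the plus strand at chr2:167688665-167688914 and the shown start of Irf8 on the plus strand at chr8:120736108-120736357.
Klf4: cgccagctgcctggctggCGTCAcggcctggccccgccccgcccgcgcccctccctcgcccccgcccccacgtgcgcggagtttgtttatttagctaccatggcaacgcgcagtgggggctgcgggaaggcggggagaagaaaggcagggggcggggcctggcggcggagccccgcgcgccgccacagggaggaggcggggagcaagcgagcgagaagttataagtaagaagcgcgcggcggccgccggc
Cebpb: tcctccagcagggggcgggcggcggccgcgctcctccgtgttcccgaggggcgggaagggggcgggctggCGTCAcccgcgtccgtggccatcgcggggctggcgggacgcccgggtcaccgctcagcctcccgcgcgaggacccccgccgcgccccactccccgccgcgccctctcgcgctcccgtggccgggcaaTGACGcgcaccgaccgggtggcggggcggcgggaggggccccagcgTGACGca
Irf8: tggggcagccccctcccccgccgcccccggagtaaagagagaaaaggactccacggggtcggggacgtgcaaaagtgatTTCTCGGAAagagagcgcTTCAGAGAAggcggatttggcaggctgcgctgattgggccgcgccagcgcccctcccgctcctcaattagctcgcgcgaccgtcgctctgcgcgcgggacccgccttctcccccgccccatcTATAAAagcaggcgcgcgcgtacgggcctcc
The core TGACG of the cyclic AMP response element was found 3 times before Cebpb (starting 180, 53 and 7 bases before the start site, the first on the other strand) and once before Klf4, 232 bases upstream on the other strand. It is present in 17.8% of all 32851 promoter windows of this length. The STAT motif TTCNNNGAA stood 171 and 153 bases before the start of Irf8 (7.02% of windows hold it), and a TATA box, TATAAA, 31 bases before it (12.4% of windows). Cebpa had a TATA box 30 bases before its start. Of the 2 Gfi1 starts, 1 had a C/EBP motif, TTGCNNAA (9.56% of windows), 143 bases upstream. Neither the NF-kB motif GGANTTTCC (1.07% of windows) nor the PU.1 motif GAGGAA (23.3%) was found in any of the 7 windows of these 5 genes. A match is a description of the letters in the window and not a binding site.

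The 108 summed libraries held 990801 to 11764630 counts (median 4200714), with 6241 to 14096 genes detected. Spi1 and Cebpd had counts in all 108 libraries, Irf8 in 106, Cebpe in 96, Cebpb in 88, Klf4 in 78, Cebpa in 77 and Gfi1 in 75. Among the 12 conditions with more than 1 usable technical repeat, the repeats of Spi1 differed by more than 2-fold in 0, those of Cebpe in 1, Irf8 in 2, Cebpd in 3, Gfi1 in 6, Cebpb in 7, Cebpa in 8 and Klf4 in 9. The values of the last 4 genes therefore carry the largest technical spread. In bulk RNA, fewer cells of a type and less RNA per cell cannot be told apart. Markers of the sorted populations were checked at 0 h in the 4 young mice, whose SDs were often as large as the means. Of 8 long-term stem cell markers 5 had their highest mean in LT, such as Slamf1 with 19.4 CPM in LT, 3.64 in ST and 1.11 in MPP. The other 3 were highest in ST, such as Hlf with 86.1 CPM in LT, 171 in ST and 84.7 in MPP. In young mouse 4 the 8 markers did not separate the populations, with median sums over its course of 61.6, 60.8 and 65.3 CPM in LT, ST and MPP. In LT of young mice 1, 2 and 3 those medians were 293, 446 and 1329 CPM. The 6 progenitor markers of young mouse 4 had median sums of 161, 172 and 222 CPM in LT, ST and MPP. All 6 progenitor markers had their highest mean in MPP, such as Flt3 with 56.0 CPM in LT, 219 in ST and 466 in MPP, but Cd48 did not separate LT (57.7 CPM) from ST (52.0 CPM). Transcripts of mature myeloid cells were present too. The neutrophil granule genes Lcn2, Ltf, Camp, Ngp, S100a8 and S100a9 took 0.564% to 7.86% of counts in the 87 libraries of the other 5 mice and 0.00248% to 0.200% in the 21 libraries of young mouse 3, which stands apart in this respect. At 0 h the 12 monocyte, macrophage and dendritic cell markers summed to 9.84, 23.4 and 202 CPM in LT, ST and MPP of young mouse 3, the lowest of the 6 mice in each population, while the medians over the 6 mice were 1466, 1224 and 1138 CPM. The part of these transcripts in the results below was not tested.

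At 0 h Spi1, the most steadily measured member, had levels in LT, ST and MPP that overlapped within the spread between mice. It was at 428, 194, 41.6 and 399 CPM in LT of young mice 1, 2, 3 and 4, at 451, 271, 125 and 500.1 CPM in ST, and at 322, 197, 133 and 448 CPM in MPP. Young mouse 3 was the lowest in each population. Irf8 was at 345, 160, 1.64 and 365 CPM in LT, at 307, 118, 11.2 and 202 CPM in ST, and at 242, 233, 100.3 and 259 CPM in MPP. In young mouse 3, which has the least granule RNA, Irf8 and Spi1 therefore stood in the order LT, ST, MPP from low to high, an order the other 3 young mice did not show. This order lies within 1 mouse and carries no test. Klf4, whose 0 h mean was 15.8 ± 18.4 CPM in LT, 6.05 ± 3.85 in ST and 3.03 ± 2.51 in MPP (SD, n = 4), gave the largest fitted difference from MPP, 2.34 ± 1.46 on the log2 scale in LT (SE; edgeR adjusted p = 1.0).

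None of the 24 tests of a member between populations at 0 h passed in edgeR's quasi-likelihood test (smallest adjusted p = 1.0), 0 had an unadjusted p under 0.05, and 0 passed in DESeq2. The 3 populations come from the same mice, which this test ignores. With the mouse as a replicate block, 0 passed as well. Across all 11568 genes 0% passed in each of the 3 comparisons, so the members' count is the same as the background. Even the progenitor marker Dntt, with means of 12.3 CPM in LT and 493 CPM in MPP, was not called. The lack of calls therefore does not show equal levels.

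The old mice gave no call against the young ones at 0 h. Spi1 in LT was at 113 and 319 CPM in old mice 2 and 4, against 41.6 to 428 CPM in the 4 young mice. Irf8 in ST was at 139 and 368 CPM in the old mice, against 11.2 to 307 CPM in the young ones. Both old mice lay inside or just above the young range. Cebpb was at 0 counts in LT and ST of both old mice, against 0 to 41.6 and 0 to 90.5 CPM in the young mice, where the highest value belonged to young mouse 4 each time. Gfi1 in ST was at 21.1 and 15.4 CPM in the old mice, against 0 to 8.69 CPM in the young ones, so these groups did not overlap (log2 difference 2.10 ± 1.67 SE, edgeR adjusted p = 1.0). The 21.1 CPM of old mouse 2 joins 2 technical repeats at 39.2 and 0 CPM, so the separation depends on a single repeat. The share of all genes that separate in this way was not computed. Of the 24 tests of a member between ages, 0 passed in edgeR, 0 had an unadjusted p under 0.05 and 0 passed in DESeq2. Over all 12983 genes 0% passed in LT, in ST and in MPP.

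Spi1, the gene of PU.1, was the member whose course passed the test, and it was higher at 2, 4 and 8 h than at 0 h in each of the 12 stimulated courses, those of 4 mice in 3 populations. At 2 h in LT it was at 757, 671 and 657 CPM in young mice 1, 2 and 3, against 428, 194 and 41.6 CPM at 0 h. Every 2 h value lay above every 0 h value. At 4 h in LT it was at 1029, 833 and 398 CPM, against the same 0 h values, and young mouse 3 at 4 h lay below young mouse 1 at 0 h. At 12 h the LT values were 411, 444 and 179 CPM, of which only that of young mouse 2 lay above the 0 h range.

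The time course in ST and MPP had the same outline. In ST Spi1 was at 655, 768 and 686 CPM at 2 h in young mice 1, 2 and 3, against 451, 271 and 125 CPM at 0 h. In MPP it was at 854, 709 and 569 CPM at 4 h, against 322, 197 and 133 CPM at 0 h. Neither pair of groups overlapped. The highest value fell at 2 h in 7 of the 12 stimulated courses and at 4 h in 5.

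**Figure D1:**
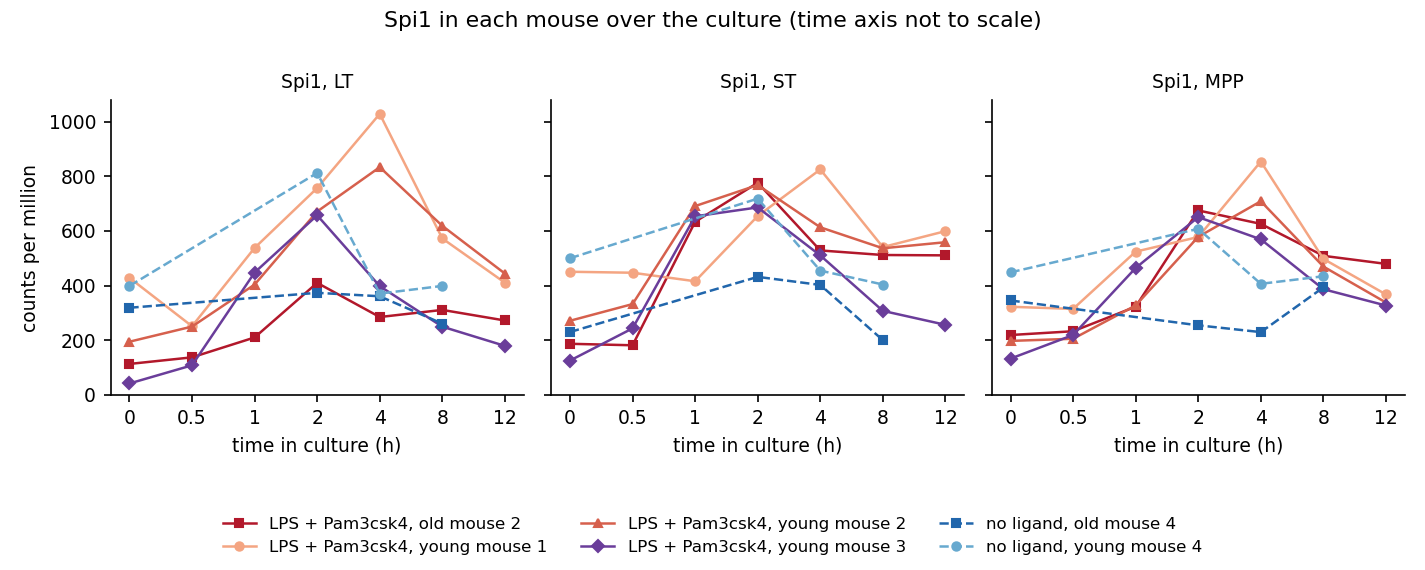
Spi1 level (CPM) in LT, ST and MPP at each time in culture; each line is 1 mouse, solid with LPS and Pam3csk4 and dashed without ligand, and the time points are evenly spaced, not to scale. The solid lines are above their own 0 h point at 2, 4 and 8 h in every panel. The dashed lines are above theirs in 5 of 6 courses at 2 h, in 2 of 6 at 4 h and in 2 of 6 at 8 h. At 8 h the dashed lines are between 200.3 and 434 CPM.

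Tested over the 6 times after 0 h together, Spi1 changed in LT (edgeR quasi-likelihood test, adjusted p = 0.039, n = 3 mice per time), where 1.17% of all 13678 genes passed. It was the only call among the 24 course tests of members, of which 5 had an unadjusted p under 0.05. In ST (adjusted p = 0.41, with 0.848% of genes passing) and MPP (adjusted p = 0.19, 0.695%) it did not pass. The labels number the mice, and the same number means the same animal, so a fit with the mouse as a replicate block was also made. With the block Spi1 passed in LT (adjusted p = 2.2e-04, 7.15% of genes passing), ST (adjusted p = 0.023, 6.28%) and MPP (adjusted p = 0.0023, 3.25%), and Klf4 passed in LT (adjusted p = 0.011). DESeq2 called Spi1 in LT and MPP and Klf4 in LT, against 4.28% and 1.70% of all genes. The LT call for Spi1 was lost without young mouse 1 (adjusted p = 0.12), without young mouse 2 (adjusted p = 1.0) and without libraries of fewer than 8000 detected genes (adjusted p = 0.11), and it held without young mouse 3 (adjusted p = 0.014).

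The single times gave log2 changes of Spi1 of similar size in the 3 populations, all relative to the same 0 h libraries. At 2 h they were 1.74 ± 0.49 in LT, 1.44 ± 0.48 in ST and 1.69 ± 0.49 in MPP (SE, n = 3 mice), with edgeR adjusted p = 0.15, 0.43 and 0.23, and no member passed at 2 h (0 of 24 tests, 5 with an unadjusted p under 0.05; 0.307%, 0.307% and 0.263% of genes passed in LT, ST and MPP). With the mouse as a block the 2 h change of Spi1 passed in LT, ST and MPP (edgeR adjusted p = 0.0021, 0.025 and 0.0062), where 0.738%, 0.804% and 0.636% of genes did. DESeq2 called 2 of these 24 tests, Spi1 and Cebpb in LT, against 4.13% of genes in LT. At 12 h the changes of Spi1 were 0.75 ± 0.48, 0.84 ± 0.48 and 0.81 ± 0.48 (edgeR adjusted p = 0.70, 0.42 and 1.0).

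Klf4, a zinc-finger factor that promotes monocyte differentiation, was highest within the first hour of stimulation in 10 of the 12 courses. In MPP it was at 9.58, 18.2 and 9.77 CPM at 0.5 h in young mice 1, 2 and 3, against 1.46, 4.18 and 0.498 CPM at 0 h. In ST it was at 20.9, 36.1 and 16.1 CPM at 0.5 h, against 9.29, 7.57 and 0.487 CPM. In both populations every 0.5 h value lay above every 0 h value. Both separations depend on sums of technical repeats that differed. The 9.29 CPM of young mouse 1 in ST joins repeats at 23.1 and 0 CPM. The 4.18 CPM of young mouse 2 in MPP joins repeats at 11.3 and 0.322 CPM. In each population the higher repeat lay above some of the 0.5 h values. The fitted log2 changes of Klf4 at 0.5 h were 0.75 ± 1.97 in LT, 2.08 ± 2.03 in ST and 2.65 ± 2.08 in MPP (SE, edgeR adjusted p = 1.0 in each). In LT it was at 15.4, 28.3 and 34.8 CPM at 0.5 h, against 42.1, 7.23 and 0 CPM, so young mouse 1 went the other way. Over the 12 stimulated courses Klf4 was higher at 0.5 h than at 0 h in 11. Its highest value fell at 0.5 h in 8 courses, at 1 h in 2, at 2 h in 1 and at 0 h in 1.

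From 4 h on Klf4 did not exceed 4.04 CPM in any stimulated library. In LT of young mice 1, 2 and 3 together 2 counts were left at 4 h, against 344 at 0 h, a ratio of 0.00886 (exact 95% interval 0.00107 to 0.0323, counting error only). At 8 h and at 12 h there were 0 counts, at least 60.4-fold and at least 51.6-fold lower than at 0 h when the group of 3 mice is set at a floor of 3 counts. Most of the 0 h counts came from young mouse 1, and young mouse 3 had 0 counts at 0 h already. The LT course of Klf4 missed the threshold (edgeR adjusted p = 0.052) and passed with the mouse as a block, as given above.

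Cebpb, a factor of stress granulopoiesis, was nearly silent at 0 h in the stimulated mice and appeared early. In LT of young mice 1, 2 and 3 a single count was found at 0 h. The LT values were 33.8, 9.57 and 0 CPM at 1 h, 25.7, 18.3 and 0.237 CPM at 2 h and 5.50, 57.4 and 0.924 CPM at 4 h. Young mouse 3, with the least granule RNA, did not exceed 1.48 CPM in any of its 21 libraries. In ST Cebpb was at 28.3, 19.1 and 0 CPM at 1 h, against 1.09, 2.80 and 0 CPM at 0 h. The 28.3 CPM of young mouse 1 joins 3 technical repeats at 95.3, 0 and 3.75 CPM, so it depends mostly on a single repeat. At 2 h Cebpb was above 0 h in 12 of the 12 stimulated courses. The pooled LT ratio at 4 h, 535 (exact 95% interval 95.4 to 21194), rests on that single count, and the 4 h values differed between mice from 0.924 to 57.4 CPM.

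**Figure D2:**
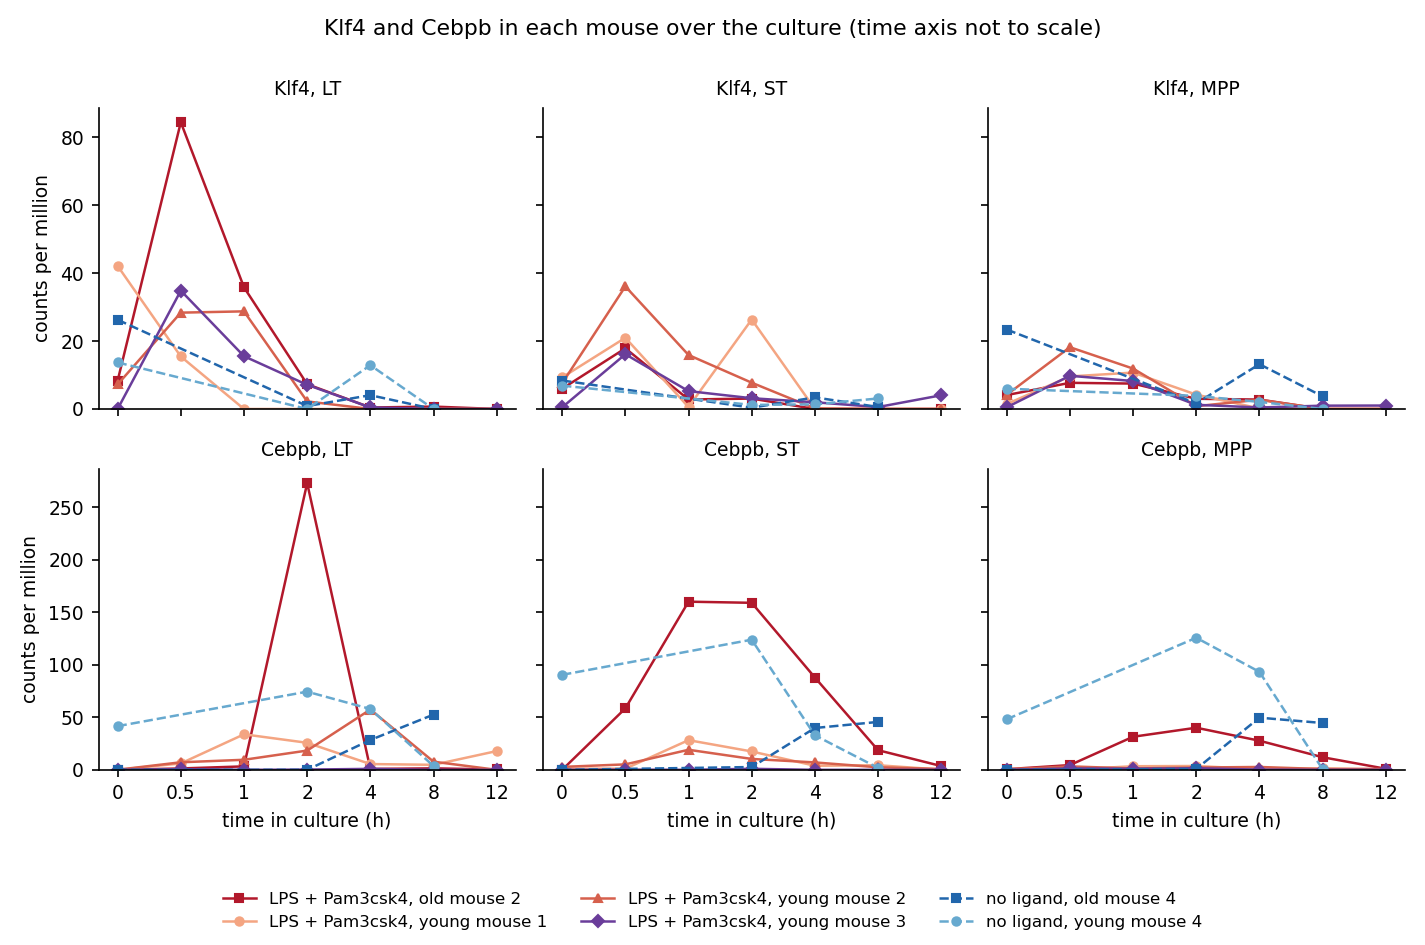
Klf4 (upper row) and Cebpb (lower row) in CPM for LT, ST and MPP; each line is 1 mouse, solid with LPS and Pam3csk4 and dashed without ligand, with time points evenly spaced, not to scale. Klf4 peaks at 0.5 or 1 h in most solid lines. Cebpb reaches 273 CPM in LT of old mouse 2 at 2 h (technical repeats at 338 and 52.2 CPM), while young mouse 3 stays near 0.

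At 0.5 h 0 of 24 tests of a member passed in edgeR (2 with an unadjusted p under 0.05) and 0 in DESeq2, against 0.154%, 0.146% and 0.0950% of genes in LT, ST and MPP by edgeR. At 1 h no member passed (0 of 24 tests by edgeR, 5 with an unadjusted p under 0.05), where 0.256% of all genes passed in LT, 0.300% in ST and 0.234% in MPP. DESeq2 called 1 of the 24 at 1 h, Cebpb in LT, against 2.45% of genes. At 12 h 0 of 24 passed by edgeR (3 with an unadjusted p under 0.05), against 0.241%, 0.446% and 0.314% of genes in LT, ST and MPP. At 8 h 0 of 24 passed by edgeR (7 with an unadjusted p under 0.05), against 0.285%, 0.263% and 0.314% of genes. DESeq2 called 2 at 8 h, Cebpb and Klf4 in LT, against 5.64% of genes, and 2 at 12 h, Cebpb and Klf4 in LT, against 4.45% of genes.

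Irf8, the monocyte and dendritic cell factor, was lower at 4 h than at 0 h in 9 of the 12 stimulated courses, all but those of young mouse 3. In LT it was at 72.5, 101 and 24.7 CPM at 4 h in young mice 1, 2 and 3, against 345, 160 and 1.64 CPM at 0 h. The 345 CPM of young mouse 1 joins 2 technical repeats at 139 and 508 CPM. In MPP Irf8 was at 72.2, 183 and 161 CPM at 4 h, against 242, 233 and 100.3 CPM at 0 h. The groups overlapped in both populations. In young mouse 3 Irf8 peaked at 2 h, at 107 CPM in LT, 106 in ST and 249 in MPP. The largest fitted change of Irf8 was in LT at 8 h, where it was at 0, 48.9 and 6.13 CPM (log2 change -3.16 ± 1.43 SE, edgeR adjusted p = 0.42). At 12 h the fitted change in LT was -0.089 ± 1.31 (SE), while 9 of the 12 stimulated courses were below 0 h and 3 above.

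Cebpd, the acute-phase C/EBP, was above its 0 h level at 4 h in 11 of 12 stimulated courses. In MPP it was at 87.3, 65.3 and 44.6 CPM at 4 h in young mice 1, 2 and 3, against 76.5, 32.8 and 3.24 CPM at 0 h. In ST it was at 223, 121 and 39.3 CPM, against 192, 82.6 and 0.487 CPM. Young mouse 3 had the widest change in both, and its MPP went on to 83.8 CPM at 8 h and 112 CPM at 12 h. The 6 granule genes summed to 98.8 CPM at 0 h in MPP of young mouse 3. Their highest sum over its MPP course was 237 CPM, at 12 h, where Cebpd was highest too. In ST of this mouse they went from 158 CPM at 0 h to as much as 2004 CPM. The monocyte, macrophage and dendritic cell markers summed to 202 CPM at 0 h in its MPP and to as much as 1228 CPM over that course. The part of these transcripts in the change of Cebpd was not tested. The largest fitted change of Cebpd, in MPP at 8 h, was 1.75 ± 1.47 on the log2 scale (SE, edgeR adjusted p = 1.0).

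**Figure D3:**
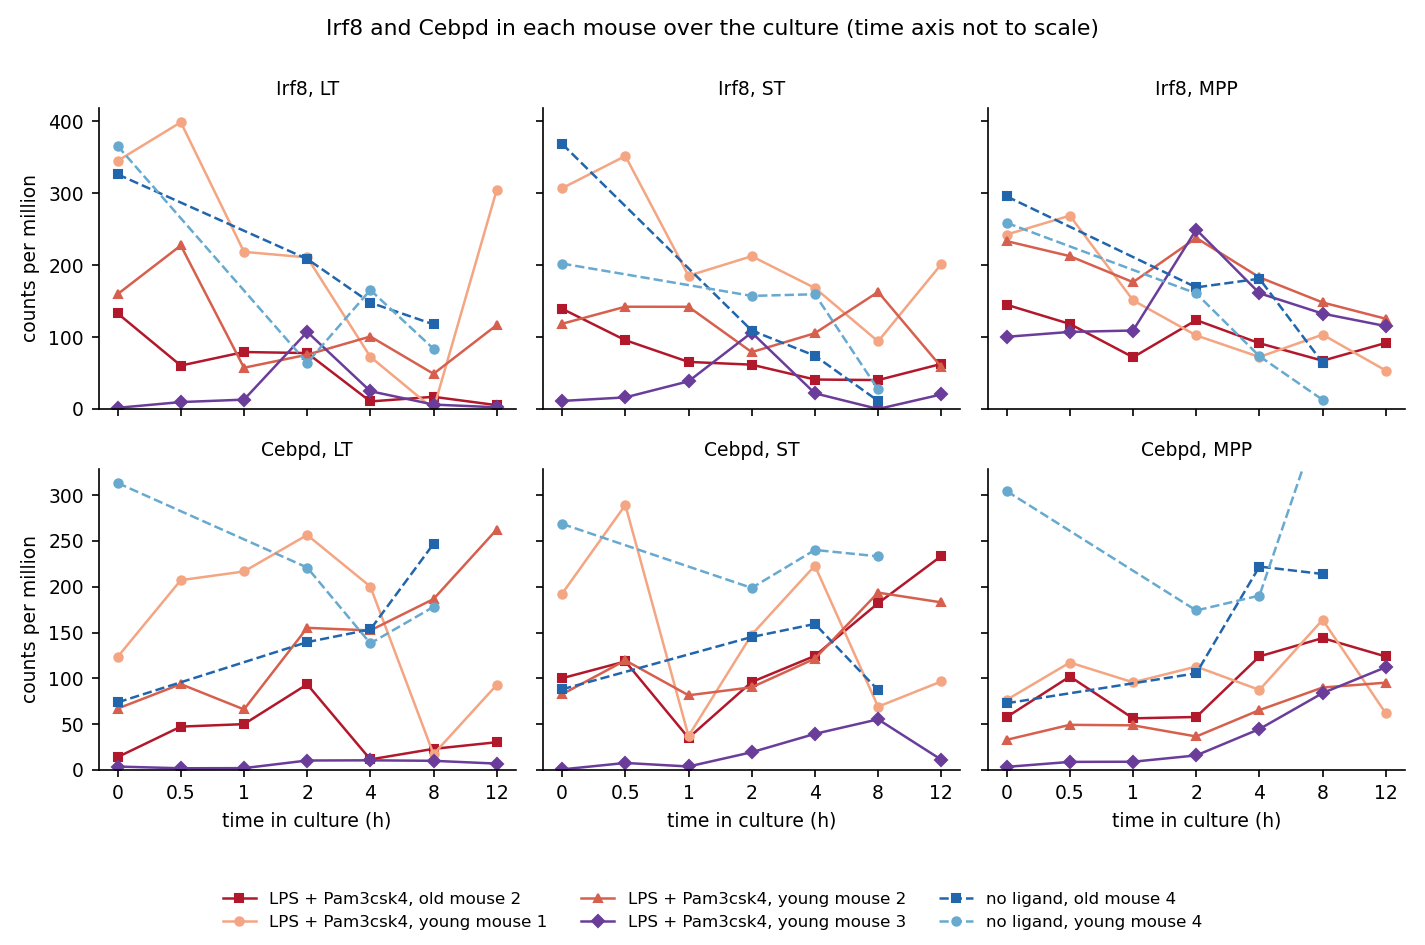
Irf8 (upper row) and Cebpd (lower row) in CPM for LT, ST and MPP; each line is 1 mouse, solid with LPS and Pam3csk4 and dashed without ligand, with time points evenly spaced, not to scale. Irf8 is below its 0 h level at 4 h in 9 of the 12 solid lines, and young mouse 3 starts at 1.64, 11.2 and 100.3 CPM in LT, ST and MPP and peaks at 2 h.

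Cebpa, the entry factor of the granulocyte and monocyte branch, was above 0 h in 4 and below it in 7 of the 12 stimulated courses at 4 h. It had 0 counts in LT of young mice 1, 2 and 3 at 0.5 h and at 1 h, at least 13.8-fold and at least 15.3-fold lower than at 0 h against the floor of 3 counts over the group, yet was at 10.8, 8.89 and 0 CPM at 2 h. All 68 counts at 0 h came from 1 of the 2 technical repeats of young mouse 1, and its other repeat held 0. Without that mouse the 0 h group holds 0 counts as well. Cebpe, the late neutrophil factor, was at 94.7, 43.8 and 0 CPM at 4 h in LT of young mice 1, 2 and 3, against 123, 43.6 and 0 CPM at 0 h. It never exceeded 1.72 CPM in young mouse 3, while in MPP of young mouse 1 it was at 200.4 CPM at 4 h, against 90.9 CPM at 0 h. Gfi1, the repressor that favours neutrophils, was at 43.0, 26.8 and 0 CPM in LT at 1 h, against 0, 6.38 and 0.820 CPM at 0 h. Over the 12 stimulated courses it was higher at 1 h than at 0 h in 5 and lower in 7, and in LT of these 3 mice it had 0 counts at 2 h. At 12 h Gfi1 had 0 counts in LT and in ST of these 3 mice, at least 11.7-fold and at least 18.5-fold lower than at 0 h against the same floor, and it was below 0 h in 10 of 12 stimulated courses. Young mouse 1 had 0 counts of Gfi1 in LT and in ST at 0 h already.

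At 4 h, the time for which every member was compared, the fitted log2 changes of Spi1 were 1.90 ± 0.49 in LT, 1.32 ± 0.48 in ST and 1.88 ± 0.49 in MPP (SE, n = 3 mice; edgeR adjusted p = 0.074, 0.575 and 0.083). Those of Klf4 were -6.26 ± 2.48, -2.93 ± 2.12 and -0.76 ± 1.99. Irf8 was at -1.22 ± 1.33, -0.44 ± 1.31 and -0.33 ± 1.31, and Cebpd at 0.99 ± 1.44, 0.60 ± 1.43 and 0.98 ± 1.44. Cebpb was at 8.51 ± 2.80, 1.58 ± 2.08 and 1.44 ± 2.08, the first of which depends on the prior count of the fit, since its 0 h group holds 1 count. Cebpa (1.14 ± 2.39, -1.76 ± 2.42 and 0.31 ± 2.36), Cebpe (-0.19 ± 2.40, -0.21 ± 2.40 and 1.29 ± 2.44) and Gfi1 (0.12 ± 2.49, 0.54 ± 2.49 and -1.96 ± 2.59) had standard errors larger than their changes. Of these 24 tests 0 passed in edgeR and 5 had an unadjusted p under 0.05, against 0.271%, 0.271% and 0.344% of all genes that passed in LT, ST and MPP. The median of the 24 member changes was 0.42, while the median over all genes was -0.31 in LT, -0.24 in ST and -0.19 in MPP. With the mouse as a block Spi1 passed at 4 h in LT (adjusted p = 0.0013, where 0.914% of genes passed) and MPP (adjusted p = 0.0026, 0.790%) and missed in ST (adjusted p = 0.063). DESeq2 called Spi1, Cebpb and Klf4 in LT and Spi1 in MPP, against 4.82% and 1.80% of genes.

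**Figure D4:**
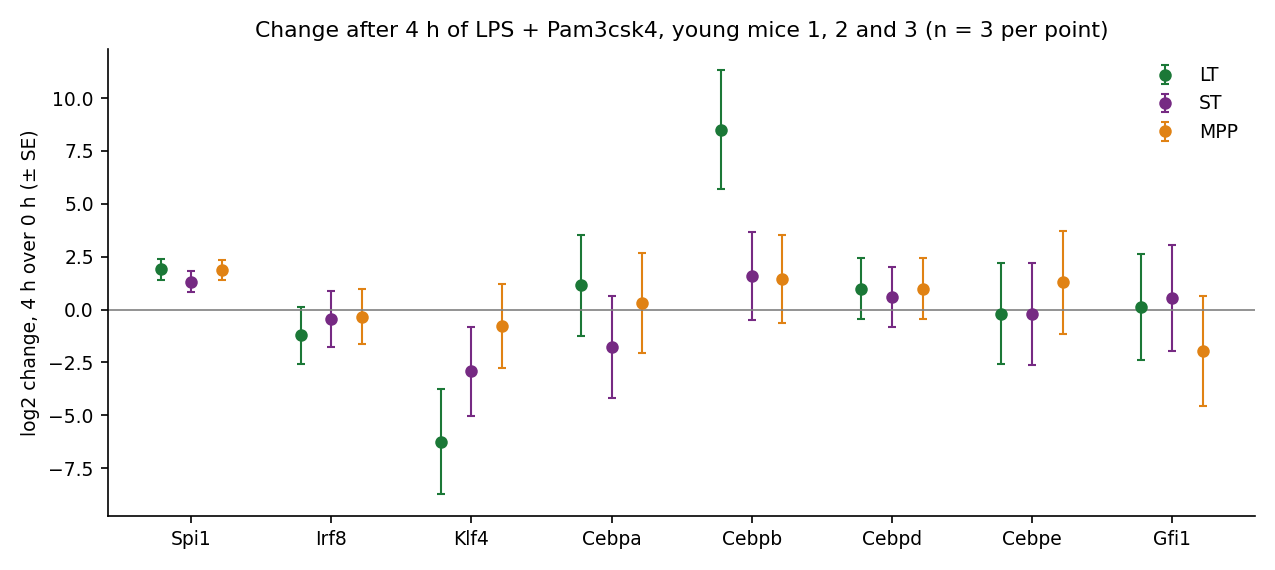
Fitted log2 change from 0 h to 4 h of LPS and Pam3csk4 for each member in LT, ST and MPP of young mice 1, 2 and 3. Points are edgeR estimates, and bars are 1 approximate standard error, derived from the F statistic of the test. Spi1 has the smallest bars, with changes of 1.90, 1.32 and 1.88, while the bars of Cebpa, Cebpe and Gfi1 cross 0 in all 3 populations.

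No difference in response between populations passed a test. Of 24 tests of the course between LT and MPP, ST and MPP, and LT and ST, 0 passed in edgeR, 1 had an unadjusted p under 0.05 (Cebpa, LT against ST) and 0 passed in DESeq2. Over all 13678 genes 0% passed in each of the 3 comparisons. The difference of the Spi1 course between LT and MPP had an adjusted p of 1.0.

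Irf8 and Klf4 were lower after culture without ligand as well. Irf8 was below its 0 h level at 2, 4 and 8 h in all 6 courses of old mouse 4 and young mouse 4. In MPP it was at 64.2 and 12.8 CPM at 8 h in old mouse 4 and young mouse 4, against 295 and 259 CPM at 0 h. In ST it was at 11.3 and 27.2 CPM at 8 h, against 368 and 202 CPM. Neither pair of groups overlapped (log2 change -2.59 ± 1.35 in MPP and -3.64 ± 1.42 in ST, edgeR adjusted p = 0.78 and 0.51; 0.236% of genes passed in each). At 8 h 0 of 24 tests of a member without ligand passed in edgeR (2 with an unadjusted p under 0.05), where 0.201% of genes passed in LT. DESeq2 called 2 of them, Irf8 in ST (adjusted p = 0.041, 3.90% of genes passing) and Klf4 in LT (adjusted p = 0.046, 3.71%). Klf4 was below 0 h in all 6 courses at 2, 4 and 8 h, for instance at 0.866 and 0 CPM in LT at 2 h, against 26.2 and 13.7 CPM at 0 h. The early times at which stimulated Klf4 peaked have no counterpart without ligand.

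Cebpb was also present without ligand, at times that differed between the mice. In young mouse 4, cultured without ligand, it was at 48.1 CPM in MPP at 0 h, 126 at 2 h, 93.3 at 4 h and 0.531 at 8 h. In old mouse 4 it was at 0 CPM in MPP at 0 h, 0.830 at 2 h, 49.7 at 4 h and 44.6 at 8 h. Over the 3 times after 0 h 0 of 24 tests of a member without ligand passed in edgeR (1 with an unadjusted p under 0.05) and 0 in DESeq2, against 0.104%, 0.181% and 0.118% of 14401 genes in LT, ST and MPP.

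The difference between the courses with and without ligand was tested as well. Spi1 in MPP at 4 h was at 626, 854, 709 and 569 CPM in stimulated old mouse 2 and young mice 1, 2 and 3, against 230 and 406 CPM in unstimulated old mouse 4 and young mouse 4. Every stimulated value lay above both unstimulated ones. At 0 h Spi1 in MPP was at 219, 322, 197 and 133 CPM in the mice later stimulated, against 346 and 448 CPM in the others. The fitted difference between the 2 changes from 0 h at 4 h was 1.95 ± 0.73 in MPP, 1.68 ± 0.73 in LT and 0.98 ± 0.73 in ST on the log2 scale (SE, edgeR adjusted p = 1.0 in each). At 2 h Spi1 was above 0 h without ligand too, in 5 of 6 courses, among them LT of young mouse 4 with 812 CPM at 2 h and 399 CPM at 0 h. Over 2, 4 and 8 h together 0 of 24 tests of a member between the courses passed in edgeR (3 with an unadjusted p under 0.05, none of them Spi1), and 0 in DESeq2. In LT 0% of genes passed, in ST 0.0486% and in MPP 0.0347%. The courses are of different mice, and the 2 unstimulated ones are 1 old and 1 young mouse. In young mouse 4 the long-term stem cell markers did not separate the populations, as given above.

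The single stimulated old mouse gave Spi1 changes within the young range. On the log2(CPM + 1) scale its change at 4 h lay between 1.33 (LT) and 1.51 (MPP), where young mice 1, 2 and 3 ranged from 1.26 to 3.23 in LT, from 0.87 to 2.02 in ST and from 1.40 to 2.09 in MPP. Irf8 changed in old mouse 2 by -3.54 in LT, -1.74 in ST and -0.66 in MPP, against ranges of -2.23 to 3.28, -0.86 to 0.90 and -1.73 to 0.68 in the young mice. In LT and ST the old mouse lay below all 3 young ones. Cebpb was higher in old mouse 2 than in the stimulated young mice at 2 h, with 273 CPM in LT, 159 in ST and 40.1 in MPP, against 0.237 to 25.7, 0.974 to 17.5 and 1.48 to 3.65 CPM in young mice 1, 2 and 3. Its neighbouring LT values in old mouse 2 were 3.30 CPM at 1 h and 0.875 CPM at 4 h, so the LT peak is 1 summed library. The 273 CPM joins 2 technical repeats at 338 and 52.2 CPM, so its size depends mostly on a single repeat. With 1 old mouse there is no test of any of these differences.

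Among partners and regulators of C/EBP proteins, Atf4 passed the test at 1 h in all 3 populations. Of 11 such genes 1 passed over the course in ST and 1 in MPP, in both Atf4, a stress-induced partner of C/EBP proteins, and 0 in LT (edgeR, 4 with an unadjusted p under 0.05), where 0.848%, 0.695% and 1.17% of all genes passed. At 1 h, where 0.256%, 0.300% and 0.234% of genes passed in LT, ST and MPP, 1, 1 and 2 of the 11 did. Atf4 was at 408 ± 90.9 CPM at 1 h in LT, against 116 ± 20.9 CPM at 0 h (SD, n = 3; log2 change 1.94 ± 0.41 SE, edgeR adjusted p = 0.010). It rose without ligand as well (2.40 ± 0.48 at 8 h in LT, adjusted p = 0.0077). Trib1, an adaptor that targets C/EBP-alpha for degradation, rose in MPP at 1 h (4.99 ± 1.15, adjusted p = 0.034).

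Of 22 other transcription factors of monocytes and progenitors, 3 passed over the course in LT (Nr4a1, Egr1 and Rel), 2 in ST and 2 in MPP (Nr4a1 and Egr1 in each), against 1.17%, 0.848% and 0.695% of all genes. Nr4a1, an immediate early nuclear receptor needed for a class of monocytes, was at 2958 ± 1411 CPM at 1 h in LT, against 27.9 ± 27.6 CPM at 0 h (SD, n = 3; log2 change 6.90 ± 0.88 SE, edgeR adjusted p = 9.6e-07). Rel, an NF-kB subunit, rose in LT at 1 h by 3.75 ± 0.80 (adjusted p = 0.012).

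Of 24 target genes of C/EBP and PU.1 in myeloid cells, 0 passed over the course in LT, ST or MPP in edgeR, with 3, 1 and 3 at an unadjusted p under 0.05. Their median log2 change at 12 h was 0.64 in LT, 0.80 in ST and 1.06 in MPP, where the median over all genes was -0.29, -0.41 and -0.25. Single targets differed from this median: the granule enzyme gene Mpo averaged 484 ± 423 CPM at 12 h in LT, against 3042 ± 2763 CPM at 0 h, and Elane, which encodes neutrophil elastase, 262 ± 302 CPM, against 1419 ± 1249 CPM (SD, n = 3). Both were chosen after their values were seen. The 6 late neutrophil granule genes gave 0 calls over the course in any population, with 0 at an unadjusted p under 0.05, and medians at 12 h of 0.36, 0.37 and 0.97. Of 12 monocyte, macrophage and dendritic cell markers 1 passed over the course in LT (Itgax, edgeR adjusted p = 0.047; 1.17% of all genes passed) and 0 in ST or MPP (4 and 2 at an unadjusted p under 0.05; 0.848% and 0.695% of genes passed). Itgax in LT was at 0 CPM at 0.5, 1 and 12 h in all 3 mice and ranged from 0 to 104 CPM at 4 h. Of the 17 transcription factors of erythroid, megakaryocytic and lymphoid lineages 0 passed over the course in any population (5, 3 and 1 at an unadjusted p under 0.05 in LT, ST and MPP).

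The genes whose pattern over the 21 means (3 populations at 7 times in young mice 1, 2 and 3) was most like that of a member were named by Pearson's r of log2(CPM + 1), after each mouse's mean was removed. For Spi1 they were Itgav (r = 0.93) and Ell2 (0.91), and for Klf4 the immediate early genes Fos (0.94) and Ier2 (0.90). For Cebpd they were 1700071M16Rik (0.92) and the cytokine subunit gene Ebi3 (0.85), for Cebpb Map2k3 (0.85) and Hspb1 (0.83), and for Irf8 Mbtps1 (0.87) and Zdhhc20 (0.86). Cebpa (Helz and Senp3), Gfi1 (Slc25a13 and Zkscan14) and Cebpe (Tbc1d10a and Acox3) had no gene above 0.83. The 21 points share mice, libraries and depth, and the most alike were picked from 8841 or 8842 genes.

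**Figure D5:**
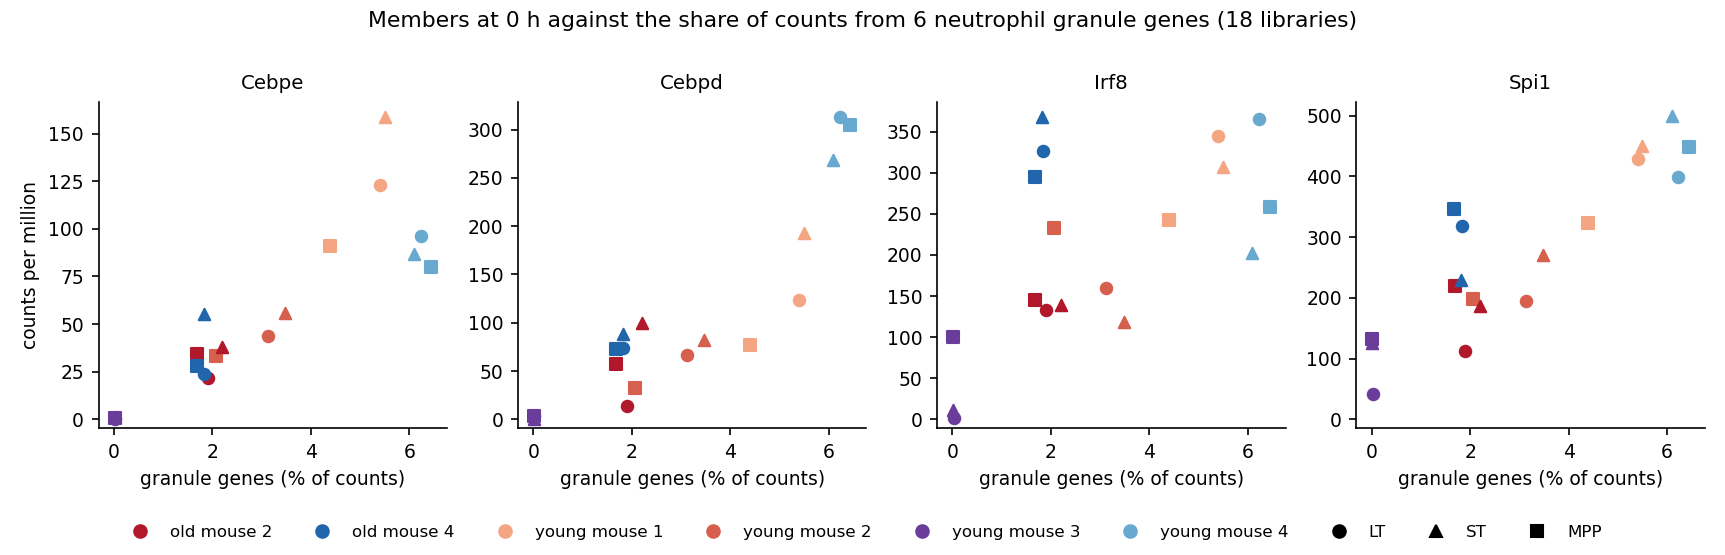
Level at 0 h in CPM of Cebpe, Cebpd, Irf8 and Spi1 (vertical axes) against the percentage of counts from 6 neutrophil granule genes (horizontal axes); colour marks the mouse and shape the population, 18 libraries in all. Young mouse 3 lies at a granule share near 0 with Cebpe below 1 CPM, while its Spi1 is between 41.6 and 133.

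The members differed in how closely their 0 h level followed the granule transcripts of a library. Pearson's r was computed across the 18 libraries at 0 h between log2(CPM + 1) and the log2 of the granule share. It was 0.97 for Cebpe, 0.92 for Cebpd, 0.78 for Irf8, 0.77 for Spi1, 0.73 for Klf4 and 0.42 for Cebpb. For Cebpa it was 0.41 and for Gfi1 -0.03. These values are a description, since 3 libraries come from each mouse. On the log2 scale the 3 libraries of young mouse 3, at 0.00988% to 0.0240%, lay far below all others, at 1.68% to 6.44%. What r would be without that mouse was not computed. In young mouse 3, where Cebpe was at 0, 0.974 and 0.747 CPM in LT, ST and MPP at 0 h, Spi1 was at 657, 686 and 651 CPM at 2 h, against 41.6, 125 and 133 CPM at 0 h. The log2(CPM + 1) changes of Spi1 at 2 h in that mouse were 3.95, 2.44 and 2.29 in LT, ST and MPP, the highest of the 3 stimulated young mice in each. Its 0 h levels of Spi1 were the lowest of the 3 in each population. At 4 h in LT its level was the lowest too, at 398 CPM against 1029 and 833 CPM in young mice 1 and 2. The part of granule transcripts in the change of Spi1 was not tested.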

How the data were processed

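The deposited table held expected counts per gene symbol, which the authors made with RSEM and mm9, per the submitters' processing notes; versions, strandedness and filters are not given in the sources used here. Of 127 columns 6 with fewer than 1000 counts (7 to 41) were dropped, and the other 121 were summed over technical repeats into 108 libraries and rounded to whole numbers, which 89.5% of the values already were. CPM divides by the library total and is not corrected for gene length, so levels of different genes are not compared. Reads were not counted by molecule, so intervals and floors cover counting error only.

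Tests used edgeR 4.0.16 (R 4.3.3; quasi-likelihood, TMM scaling, filterByExpr, 1 coefficient per population and time) with Benjamini-Hochberg adjustment over all genes of a comparison and a threshold of 0.05. The course fit used young mice 1, 2 and 3, the tests at 0 h all 6 mice or the 4 young ones, and the test of the ligand all 6. Comparisons of different times share their 0 h libraries. This edgeR test gives no standard error. The SE given with an edgeR change is its absolute size divided by the square root of the F statistic, and is approximate. Each sample is labelled by mouse, and the same number within an age is the same animal: residuals of libraries of the same mouse correlated on average at 0.192, 0.0684 and 0.408 in young mice 1, 2 and 3, against -0.127, -0.0518 and -0.208 with other mice. Alternatives were a mouse block, DESeq2 1.42.0, DESeq2 size factors, no filter, at least 5 CPM, 1 technical repeat, leaving out each mouse and, added after seeing the data, only libraries with at least 8000 detected genes. All 8 members are named; log2 changes are given for those past the threshold, for every member at 4 h and for the largest change. The members and the gene lists were chosen with earlier results of these data known.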

Additional observations from a re-analysis of the deposited data

Results flagged for a closer look

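In the 4 young mice at 0 h, 5 of 24 groups of 4 values held a sample far from the others. Chance meets this criterion in about 1 group in 20 when values are normal and groups independent. The groups here share the same 4 mice, and several hold low counts with zeros, so the 5 cannot be set against that rate. Young mouse 4 was highest for Cebpb in LT (41.6 CPM), ST (90.5 CPM) and MPP (48.1 CPM) and for Cebpa in MPP (16.4 CPM). Young mouse 3 was lowest for Irf8 in MPP (100.3 CPM). Of 216 comparisons of directions between populations or treatments, 5 had opposite directions throughout, all of them between treatments: every stimulated mouse moved one way from 0 h and both unstimulated mice the other. The log2 differences between the changes with and without ligand were 1.95 for Spi1 in MPP at 4 h, 1.08 for Spi1 in ST at 8 h, 1.54 and 1.28 for Cebpe in MPP at 4 and 8 h, and -3.16 for Gfi1 in MPP at 8 h. None passed in edgeR (adjusted p = 0.96 for Spi1 in ST and 1.0 for the others). How many fully opposite cases chance gives was not computed, nor the share over all genes, so the 5 carry no conclusion about treatment.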

How the results depend on the processing

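Over the course 1 of 24 member tests passed; the count was 3 with DESeq2, 2 with at least 5 CPM, 4 with the mouse as a replicate block, 0 with at least 8000 detected genes, and 0 to 2 without each mouse in turn. At 4 h, where 0 passed, it was 4 with DESeq2, 1 with DESeq2 size factors, 2 with the replicate block, 1 with at least 8000 detected genes and 0 to 2 without each mouse. DESeq2 gave 1 at 1 h and 2 at 12 h. The log2 change of Spi1 at 4 h ranged over the alternatives from 1.69 to 2.59 in LT, 1.15 to 1.68 in ST and 1.76 to 2.16 in MPP, and its change at 12 h in LT turned to -0.30 with at least 8000 detected genes. Changes at 4 h of members far from the threshold turned sign. With the replicate block they were -0.40 for Cebpa in MPP, -0.15 for Gfi1 in LT and 0.12 for Irf8 in MPP. Leaving out each mouse in turn gave -0.053 to 0.74 for Cebpa in MPP, -7.20 to 1.40 for Cebpa in ST, -0.32 to 0.13 for Cebpe in LT, -0.47 to 0.38 for Cebpe in ST, -0.77 to 2.33 for Gfi1 in LT, -0.63 to 1.11 for Gfi1 in ST, -0.68 to 0.25 for Irf8 in MPP and -0.62 to 0.13 for Irf8 in ST. Cebpd in ST was at -0.035 with at least 8000 detected genes, and Cebpe in LT at 0.18 with 1 technical repeat. The causes were not tested. Of the other recomputed values, which are changes after 0 h of stimulation (each member at 4 h and at its largest change, and Spi1 at 1 to 12 h), 384 kept direction and side of the threshold and 14 were newly past it. None of these changes passed in the main fit, so keeping the side means staying short of the threshold, and no call could be lost. Untested 4 h changes of Spi1, Irf8, Cebpd and Cebpe in old mouse 2, with a smaller pseudocount, are counted too. Changes of other members at other times, and single members between populations, ages or treatments, are not among the recomputed values. Few counts limit Cebpa, Cebpb, Gfi1 and late Klf4. DESeq2 size factors shifted the median change of all genes by up to 0.18 on the log2 scale, and Spi1 kept its direction under them.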
